A study of Homo sapiens with 6 samples.

Results

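The genes described here encode the subunits of the oxidative phosphorylation system, the respiratory chain complexes I to IV and ATP synthase (complex V). Members were the genes whose single symbol in the array annotation matched the subunit names (NDUFA, NDUFB, NDUFC, NDUFS or NDUFV and a number, SDHA to SDHD, UQCR genes and CYC1, COX4I1, COX5 to COX8 and a letter, and ATP5 genes). Pseudogenes were left out. The rule used no measured value. It found 76 genes among 19775 genes with 1 symbol, and 72 of them were among the 14243 genes bright enough to test. These were 32 of 32 listed subunits of complex I, 3 of 3 of complex II, 7 of 7 of complex III, 13 of 16 of complex IV and 17 of 18 of complex V. NDUFS5, NDUFS8, NDUFC2 and UQCRH were measured by probe sets that carry several symbols and were not members.

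The study compared 2 populations of human colorectal cancer cells. SW480 is the parental line, and M5 is a subpopulation of it that was obtained by selection in animals for metastasis to the liver. Both were cultured in RPMI medium with fetal bovine serum, penicillin and streptomycin. Total RNA of each population was hybridised to 3 Affymetrix U133 Plus 2.0 arrays, which the labels call biological replicates. M5 is 1 selected population, so the spread between its arrays holds no spread between separate selections.

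Complexes I and II pass electrons from NADH and succinate to ubiquinone, complex III passes them to cytochrome c and complex IV to oxygen. Complexes I, III and IV pump protons across the inner mitochondrial membrane, and complex V uses the returning protons to make ATP. All subunits measured as members are encoded in the nucleus, while a small set of core subunits of complexes I, III, IV and V is encoded in mitochondrial DNA. Nuclear respiratory factor 1 (NRF1), ETS family factors such as GABP, YY1 and oestrogen-related receptors are known regulators of these nuclear genes.

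The arrays differed in brightness, with 2% trimmed means of the deposited intensities from 21.1 on SW480 replicate 1 to 87.1 on SW480 replicate 3; M5 replicate 1 was the second dimmest at 27.2. Signals below are intensities after quantile normalisation, and a difference is M5 minus SW480 on the log2(signal + 1.7) scale. The 18S ribosomal RNA control split the arrays across the populations. Its geometric mean in the deposited intensities, before normalisation, was high for SW480 replicate 1 (1814), SW480 replicate 2 (1243) and M5 replicate 1 (1396). It was low for SW480 replicate 3 (88.4), M5 replicate 2 (189) and M5 replicate 3 (274). M5 replicates 2 and 3 were far closer to each other than any other pair. All 10 colon epithelial markers were measured, and their summed signal was 9089 to 12848 on the SW480 arrays and 11325 to 12186 on the M5 arrays. The summed signal of striated muscle markers was 355 to 519 on the SW480 arrays and 321 to 478 on the M5 arrays, and that of fibroblast markers 228 to 357 and 179 to 224, without overlap. For leukocyte markers it was 17.2 to 115 and 83.1 to 189, and for hepatocyte markers 74.2 to 281 and 86.3 to 549. Of the 8 fibroblast markers 6 were tested, 3 with a positive and 3 with a negative difference (median -0.04, from -1.31 to 0.63). No marker gene of these lists passed the limma test between the populations, which called 0.19% of all genes. It included 8 colon epithelial, 6 striated muscle, 6 fibroblast, 3 leukocyte and 4 hepatocyte markers. Differences ran from 0.40 to 2.72 in the tested leukocyte markers and from -0.47 to 3.52 in the hepatocyte markers. The part of the marker genes in the results was not tested.

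Binding motifs of the known regulators were present in a larger share of the subunit genes' promoters than of all promoters. RefSeq promoter windows of 300 bases (250 before and 50 after the gene start, build GRCh38.p14) were matched for 65 of the 76 members and compared with the windows of 27303 genes, members included. The NRF1 motif GCGCATGCG, read on both strands, was found in 10 members (15.4%) against 2.1% of all windows. The ETS motif CCGGAAG was found in 18 members (27.7%) against 10.7%, and the YY1 motif AAGATGGCG in 7 (10.8%) against 1.85%. The motif of oestrogen-related receptors, TCAAGGTCA, was found in 1 member, SDHD (1.54%), against 0.359%. At least 1 of the 4 motifs was present in 29 members (44.6%) against 14% of all windows. A match is a run of letters and not evidence that the factor binds there. The pieces below carry NRF1 or ETS motifs (capitals) in genes of complexes I to V whose array values are given further on. They are read 5′ to 3′ on the gene's strand, and the coordinates are GRCh38.p14.
SDHD, NRF1 motif on both strands, overlapping, 110 bases before the start, chr11:112086743-112086791, plus strand: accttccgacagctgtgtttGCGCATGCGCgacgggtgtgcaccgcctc
COX6A1, NRF1 motif 219 bases before the start, chr12:120437874-120437922, plus strand: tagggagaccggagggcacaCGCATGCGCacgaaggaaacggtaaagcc
ATP5MC2, NRF1 motif 41 bases before the start, chr12:53676096-53676144, minus strand: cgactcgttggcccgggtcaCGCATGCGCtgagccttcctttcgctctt
NDUFB7, ETS motif 24 bases before the start, chr19:14572067-14572110, minus strand: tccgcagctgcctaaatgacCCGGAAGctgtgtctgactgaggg
UQCR11, ETS motif on both strands, the first 117 bases before the start, chr19:1605553-1605599, minus strand: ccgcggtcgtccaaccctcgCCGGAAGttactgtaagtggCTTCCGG
ATP5PD, ETS motif 101 bases before the start, chr17:75047044-75047090, minus strand: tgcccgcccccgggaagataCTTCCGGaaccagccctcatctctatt
The members with and without a motif were then set beside each other on the arrays. The median difference was -0.01 in the 10 tested members with the NRF1 motif and 0.10 in the 53 without it, 0.11 in 18 with the ETS motif and 0.03 in 45 without it, and 0.10 in 7 with the YY1 motif and 0.07 in 56 without it. These medians are given as a description.

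No oxidative phosphorylation subunit gene differed between M5 and SW480 at an adjusted p under 0.05. With limma and Benjamini-Hochberg adjustment over all 14243 genes, 0 of 72 members were higher and 0 were lower in M5, where 14 of all genes (0.0983%) were higher and 13 (0.0913%) were lower. At an unadjusted limma p under 0.05 there was 1 member, NDUFA8, against 11.6% of all genes. Without the intensity trend limma called 0 of all genes, members included. Of the members, 44 (61.1%) had a positive difference and 28 a negative one, where 49.2% of all genes had a positive one. The median was 0.05, with quartiles of -0.09 and 0.19, against a median of -0.01 over all genes. The size of this median depended on the scaling: it was 0.31 with 63 positive members when arrays were not scaled, and 0.20 with 56 positive members when arrays were centred on their medians, with 0 members and 0.0633% of all genes called in both. It was 0.003 with 36 positive members when the 18S class was a block, where 0 members and 0.126% of all genes were called. The median over all genes was 0.07 without scaling, -0.05 with median centring and -0.02 with the 18S block.

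The differences of the subunit genes were small and measured with narrow intervals. Only COX6A2 had a difference over 0.5 in size, which is 1.39% of the members, against 32.1% of all genes tested. The share was 17.1% among the 3236 other genes at least as bright as NDUFS7, the dimmest member apart from COX6A2 and COX6B2. That comparison set had no upper limit on signal. The median size of the difference was 0.14 in the members, 0.32 over all genes and 0.22 in those 3236 genes. The 95% confidence interval lay within 1 log2 unit of 0, a doubling or halving, for 70 of 72 members (97.2%), against 39.7% of all genes and 80.2% of the 3236 genes. It lay within 0.5 for 32 members (44.4%), against 4.18% of all genes and 17.0% of the 3236 genes. Among the brightest 10% of genes tested, 31.0% had an interval within 0.5 and 86.4% within 1. In that set 13.2% had a difference over 0.5 in size, and the median size was 0.18. A change smaller than these intervals was not detectable with 3 arrays a group. In 2 members, NDUFB7 and COX5A, every M5 array was above every SW480 array, against 7.66% of all genes, and in 4 members, NDUFA8, NDUFA13, NDUFB11 and ATP5F1A, every M5 array was below, against 8.42%. The shares of members, 2 and 4 of 72, were both below those backgrounds.

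**Figure D1:**
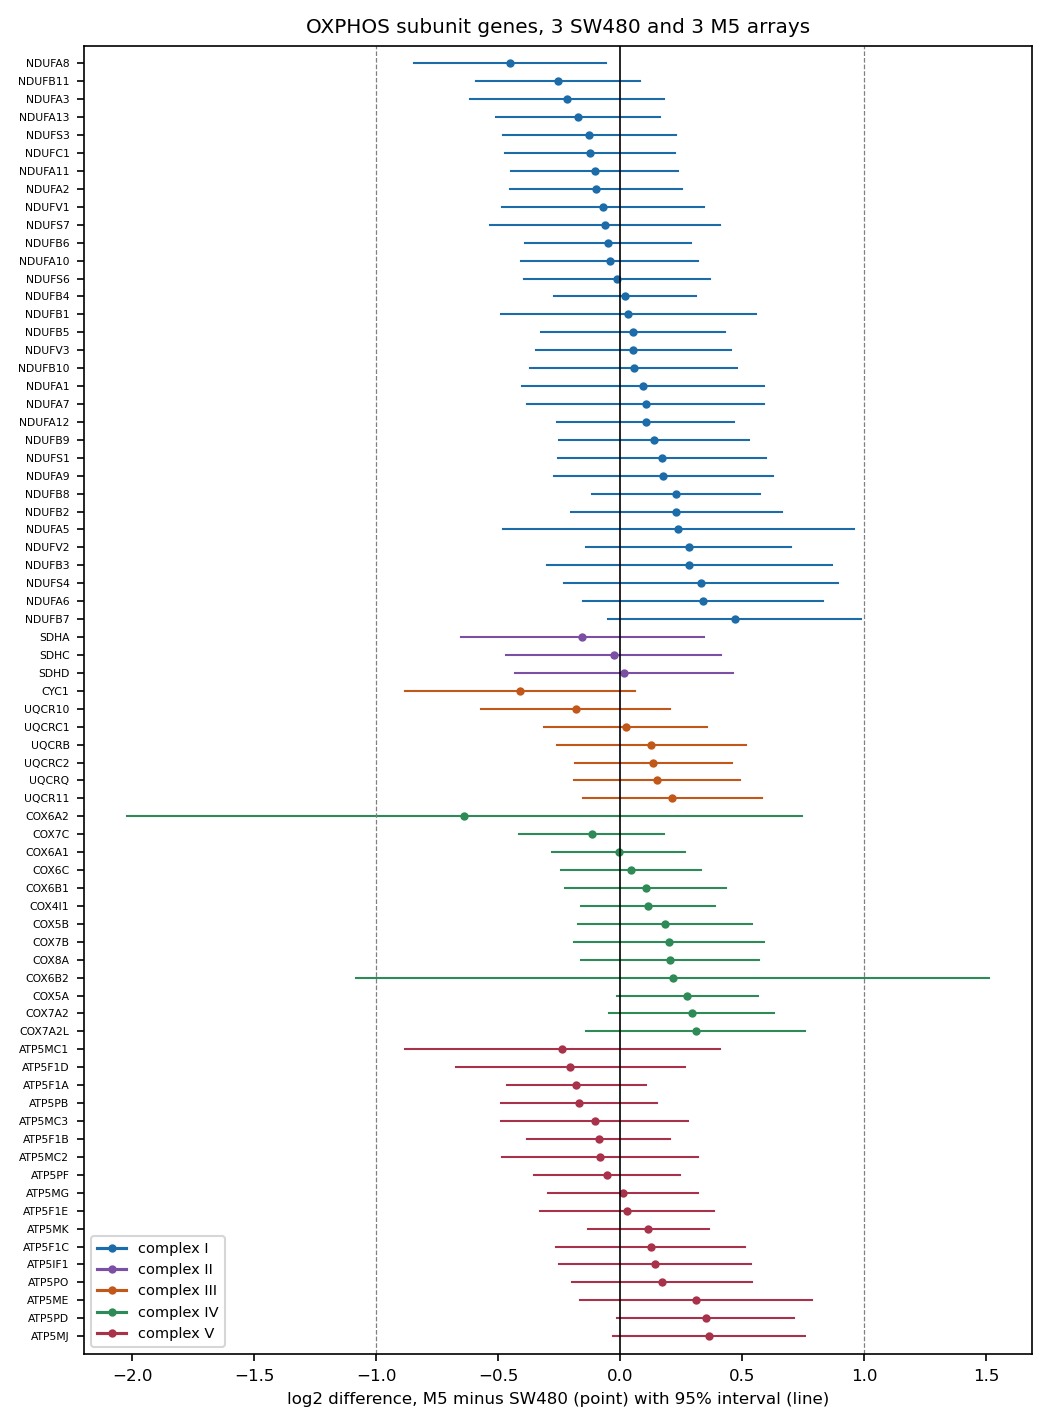
Log2 difference between M5 and SW480 (x axis, M5 minus SW480 of log2(signal + 1.7)) for the 72 tested subunit genes, grouped by complex on the y axis, with points for the limma estimate and bars for the 95% confidence interval. The estimates run from -0.64 for COX6A2 to 0.47 for NDUFB7, and the wide intervals belong to COX6A2 and COX6B2, which had low signals.

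Complex I, the NADH dehydrogenase that feeds most electrons into the chain, had a median difference of 0.05 over 32 subunits. By module the medians were 0.10 in the 10 subunits of the NADH-oxidising N module, 0.06 in the 4 of the ubiquinone-reducing Q module and 0.03 in the 18 of the proton-pumping P module. The lowest p of all members belonged to NDUFA8, an accessory subunit of the membrane arm. Its signals were 651, 887 and 729 on the SW480 arrays and 595, 508 and 542 on the M5 arrays. All M5 arrays lay below all SW480 arrays, but the difference of -0.45 (SE 0.18, 95% confidence interval -0.85 to -0.06) had an limma adjusted p of 0.390. Without SW480 replicate 1 and M5 replicate 1, the 2 dimmest arrays, NDUFA8 was lower in M5 with a difference of -0.61 (SE 0.15, limma adjusted p = 0.035). That made it 1 called member of 73, in a comparison that called 11.3% of all genes.

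The largest positive difference was that of NDUFB7, another accessory subunit of the membrane arm. It gave 216, 349 and 356 on the SW480 arrays and 390, 375 and 488 on the M5 arrays. SW480 replicate 1 stood lowest and the groups did not overlap. The difference of 0.47 (SE 0.24) had an limma adjusted p of 0.479. NDUFB11 had no overlap in the other direction, with 932, 894 and 851 in SW480 and 714, 773 and 755 in M5 (difference -0.26, limma adjusted p = 0.562). NDUFB9, the brightest complex I member, gave 2960, 3586 and 4304 in SW480 and 3152, 4399 and 4385 in M5, and these ranges overlapped (difference 0.14). In the catalytic arm (the N and Q modules) differences ran from -0.13 for NDUFS3 to 0.34 for NDUFA6, with 0.33 for NDUFS4 and 0.28 for NDUFV2. The difference was 0.17 for NDUFS1, which holds iron-sulphur clusters, -0.07 for the NADH-binding NDUFV1 and -0.06 for NDUFS7, at the ubiquinone site. The groups overlapped for each of these 7 genes.

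Complex II, succinate dehydrogenase, is also an enzyme of the citric acid cycle, and 3 of its subunits were measured. SDHA, the flavoprotein that oxidises succinate, gave 434, 381 and 351 on the SW480 arrays and 474, 310 and 285 on the M5 arrays. Its M5 values lay on both sides of the SW480 values (difference -0.15, limma adjusted p = 0.838). The membrane anchor SDHC gave 588, 463 and 491 against 401, 559 and 564 (difference -0.03). The other anchor, SDHD, gave 675, 1065 and 1123 against 943, 902 and 980 (difference 0.02). In both anchors the M5 range overlapped the SW480 range.

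Complex III had a median difference of 0.13 over 7 subunits. CYC1, the haem-carrying cytochrome c1 that hands electrons to cytochrome c, had the lowest estimate, with 1685, 1606 and 2449 on the SW480 arrays and 1064, 1669 and 1589 on the M5 arrays. SW480 replicate 3 was high and M5 replicate 1 low, and the groups overlapped. The difference was -0.41 (SE 0.21, limma adjusted p = 0.492). It was -0.63 among the 3 arrays of high 18S signal and -0.59 among the 3 of low 18S signal. With the 18S class as a block, the unadjusted limma p of CYC1 was 5.61e-04 and its limma adjusted p was 0.145. The small accessory subunit UQCR11 gave 1600, 1742 and 2118 against 1766, 2193 and 2380 (difference 0.21). UQCRB, the brightest member of the complex and a ubiquinone-binding subunit, gave 3685, 3930 and 5861 against 4258, 5115 and 5076 (difference 0.13). The 2 core proteins UQCRC1 and UQCRC2 had differences of 0.02 and 0.14.

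Complex IV, cytochrome c oxidase, had a median difference of 0.18 over 13 subunits, of which 10 were positive and 0 passed the test. The median was 0.23 between the 4 brighter arrays and 0.00 between the 2 dimmest, 0.09 among the arrays of high 18S signal and 0.02 among those of low 18S signal. COX5A, a matrix-side subunit, gave 1649, 1626 and 1683 on the SW480 arrays and 2019, 2040 and 1944 on the M5 arrays. The 3 arrays of each population were close together and the groups did not overlap. The difference was 0.28 (SE 0.13, limma adjusted p = 0.454). The regulatory subunit COX4I1 gave 3868, 3787 and 4465 against 4085, 4488 and 4512, which overlapped (difference 0.11). COX7C, the brightest member, gave 5252, 4962 and 6475 against 4674, 5237 and 5402 (difference -0.12).

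Several complex IV subunits come as a ubiquitous isoform and a tissue-restricted one of muscle or testis. The ubiquitous isoforms had a median difference of 0.20. COX7A2 gave 3439, 3358 and 4699 against 4204, 5063 and 4683 (difference 0.29, limma adjusted p = 0.495), and SW480 replicate 3 lay among the M5 arrays. The differences of the others were -0.01 for COX6A1, 0.10 for COX6B1, 0.20 for COX7B and 0.20 for COX8A. Their groups overlapped. COX7A2L, which resembles COX7A2 and helps join complexes III and IV into supercomplexes, gave 551, 553 and 837 against 677, 842 and 852 (difference 0.31, limma adjusted p = 0.599). Again SW480 replicate 3 lay with the M5 arrays.

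The probe sets of the tissue-restricted isoforms were dim in both populations. The muscle isoform COX6A2 gave 18.8, 10.9 and 15.7 in SW480 and 2.35, 17.6 and 13.6 in M5. The low M5 replicate 1 made the difference -0.64, with a 95% confidence interval of -2.02 to 0.74. The testis isoform COX6B2 gave 9.80, 9.05 and 15.9 against 4.75, 19.2 and 23.6 (difference 0.21, 95% confidence interval -1.08 to 1.51). COX7A1 of muscle, and COX7B2 and COX8C of testis, were below the filter on low values and not tested. The same held for ATP5MF, a membrane subunit of complex V and not a tissue-restricted isoform. It had 1 probe set with a single symbol, and whether that probe set reports its transcript was not tested. Signals of these 4 genes lay between 0.333 and 10.8 on all arrays. The table gives no detection calls, so which of these signals lay above background is unknown.

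Complex V, ATP synthase, had a median difference of 0.01 over 17 members. The catalytic F1 part had a median of -0.09 over 5 subunits. ATP5F1A, the alpha subunit, gave 3609, 4314 and 3609 on the SW480 arrays and 3566, 3229 and 3358 on the M5 arrays. The groups did not overlap by a narrow margin (difference -0.18, limma adjusted p = 0.635). The catalytic beta subunit ATP5F1B had a difference of -0.09.

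The c ring, which turns as protons pass, is encoded by 3 genes for the same mature protein, and all 3 had negative estimates. ATP5MC1 gave 457, 393 and 401 against 581, 226 and 335, the widest spread of the 3 (difference -0.24). The differences of ATP5MC2 and ATP5MC3 were -0.08 and -0.11, and the groups overlapped for each. The 4 tested small membrane subunits had positive estimates with a median of 0.21. ATP5MJ gave 2178, 2245 and 3238 against 2719, 3460 and 3586 (difference 0.36, limma adjusted p = 0.467), with SW480 replicate 3 above M5 replicate 1. The brightest member, ATP5MK, gave 5799, 5427 and 6183 against 6132, 6369 and 6320 (difference 0.11).

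The peripheral stalk, which holds F1 still against the turning ring, had a median difference of 0.06. Its subunit ATP5PD had the lowest p of the complex, with 3805, 3579 and 4938 against 4240, 5861 and 5602. The groups overlapped through SW480 replicate 3 (difference 0.35, SE 0.17, limma adjusted p = 0.453). ATP5IF1, the inhibitor that blocks ATP hydrolysis when the proton gradient fails, gave 648, 510 and 608 against 563, 701 and 685 (difference 0.14).

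**Figure D2:**
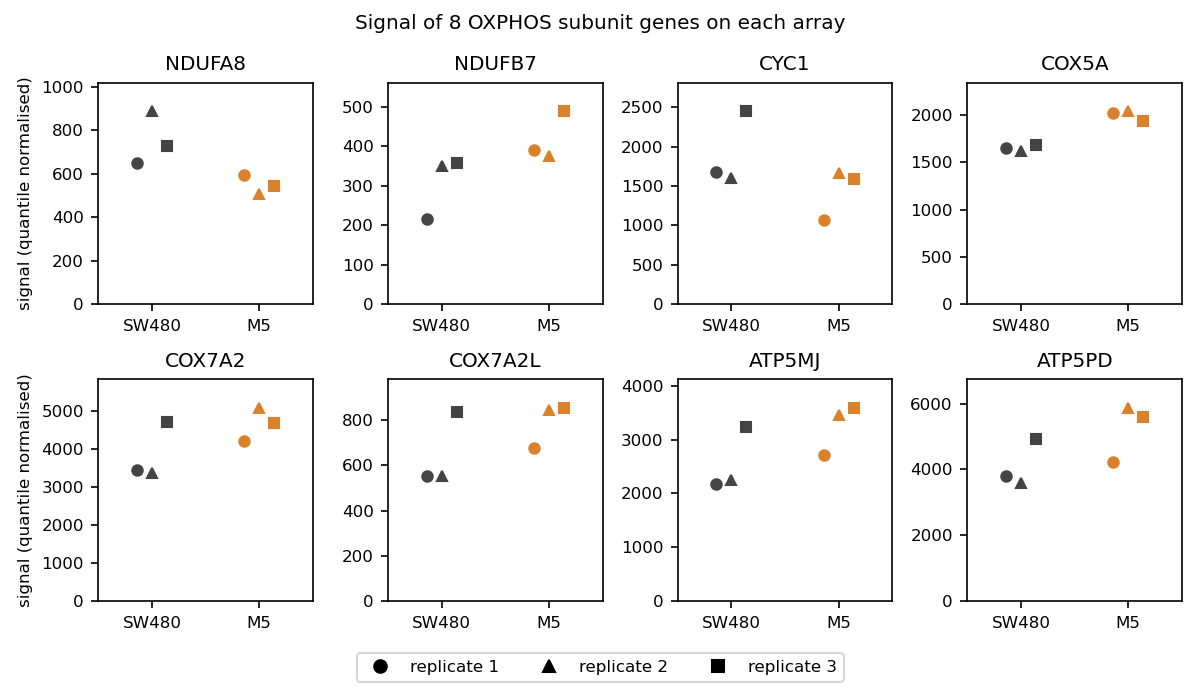
Quantile-normalised signal (y axes, linear intensity from 0) on each of the 3 SW480 and 3 M5 arrays for NDUFA8, NDUFB7, CYC1, COX5A, COX7A2, COX7A2L, ATP5MJ and ATP5PD, with a marker shape for each replicate number. COX5A lies at 1626 to 1683 in SW480 and 1944 to 2040 in M5, whereas in COX7A2, COX7A2L, ATP5MJ and ATP5PD the third SW480 array lies among the M5 arrays.

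The arrays grouped differently over the subunit genes than by population. Array pairs were compared by the spread of their log2 differences over the 72 members. This spread was the median absolute deviation in R, centred on the pair's median difference and scaled by the default constant. Between SW480 replicate 3 and M5 replicates 2 and 3 it was 0.20 and 0.21 (Pearson r = 0.992 for both, across genes that share the same arrays). Between SW480 replicate 3 and SW480 replicates 1 and 2 it was 0.48 and 0.30. For M5 replicates 2 and 3 the spread was 0.084, and for every other pair of arrays it was 0.20 to 0.48. Over the 3277 brightest probe sets, SW480 replicate 3 had spreads of 0.36 and 0.38 with M5 replicates 2 and 3. With SW480 replicates 1 and 2 they were 0.45 and 0.34. In those probe sets the spread was 0.28 between SW480 replicate 1 and M5 replicate 1, and 0.44 between SW480 replicates 1 and 2. In 49 of 72 members (68.1%) the SW480 replicate 3 signal was nearer to the mean of M5 replicates 2 and 3 than to the mean of the other SW480 arrays, against 43.7% of all genes. These 3 arrays are the ones of low 18S control signal, and the part of that signal in the pattern was not tested.

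**Figure D3:**
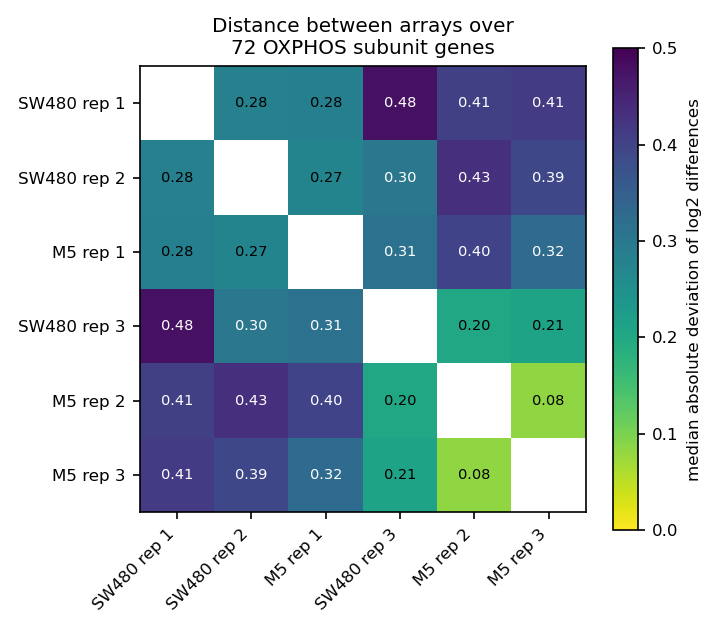
Median absolute deviation (centred and scaled) of the log2 differences between each pair of the 6 arrays over the 72 tested subunit genes. The matrix has the arrays on both axes and cells shaded by the value (log2 units). SW480 replicate 3 has its smallest values with M5 replicates 2 and 3 (0.20 and 0.21), and the smallest of all is between M5 replicates 2 and 3 (0.084).

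Per array, the members' median deviation from the gene means was -0.02, -0.09 and 0.08 on the SW480 arrays and -0.02, 0.04 and 0.08 on the M5 arrays. For complex IV it was -0.02, -0.22 and 0.09 against -0.04, 0.16 and 0.11. SW480 replicate 2 was the lowest array, SW480 replicate 3 lay near M5 replicates 2 and 3, and M5 replicate 1 lay near SW480 replicate 1. The genes with the widest spread within SW480 were NDUFA5 of the Q module, with 398, 655 and 1012 against 506, 923 and 929 in M5, and NDUFB3 of the membrane arm, with 635, 525 and 1187 against 794, 993 and 907. Both had a high value on SW480 replicate 3. The median difference of the members was 0.07 between the 2 dimmest arrays and 0.08 between the 4 others. It was 0.08 among the arrays of high 18S signal and -0.004 among those of low 18S signal. The sign on the dimmest pair and on the others was the same for 43 of 72 members (59.7%), against 50.6% of all genes.

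**Figure D4:**
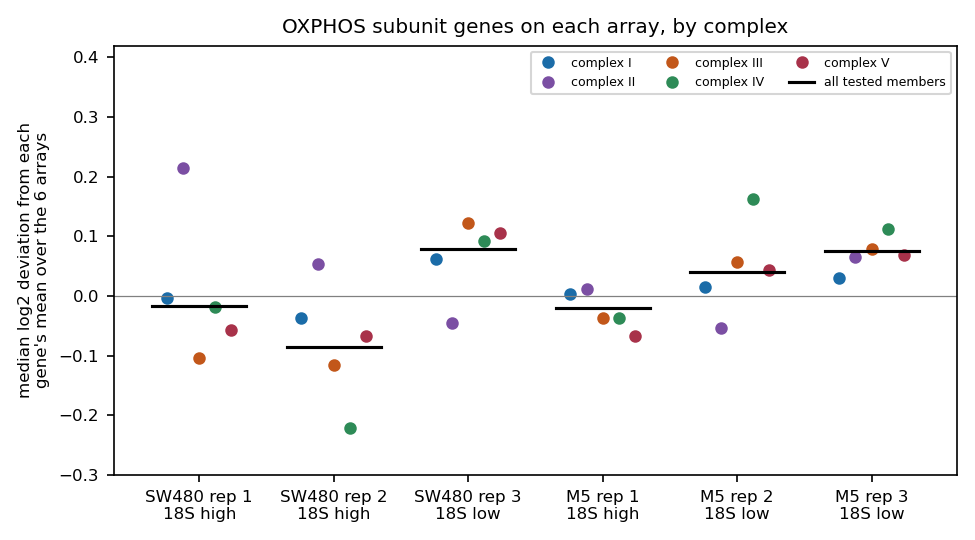
Median deviation of each complex's subunit genes from their own mean over the 6 arrays (y axis, log2 units), for each array on the x axis, with a coloured point for each complex and a black bar for the median over all 72 members. Complex IV runs from -0.22 on SW480 replicate 2 to 0.16 on M5 replicate 2, and the third SW480 array lies at 0.09.

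Some members had further probe sets, 63 in 40 genes. Of these, 40 had the same sign of difference as the brightest probe set of their gene, and the differences ran from -1.36 to 1.94. Of these probe sets 4 had an unadjusted limma p under 0.05, and the lowest limma adjusted p was 0.374. Among the brightest probe sets, 34 of 72 (47.2%) had names ending in _s_at and 7 (9.72%) in _x_at, classes that can detect more than 1 transcript or related sequences, such as the processed pseudogenes that many subunit genes have.

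No gene of the lists of genes that work with the subunits passed the test. Of the assembly factors, which build the complexes, 48 of 49 were tested, with 0 higher, 0 lower and a median difference of 0.11. The citric acid cycle list (11 of 13 tested) had a median of -0.06, the mobile carriers and exchangers (12 of 14) of 0.01, the regulators of mitochondrial biogenesis (15 of 16) of 0.05, the mitochondrial ribosomal proteins (75 of 75) of 0.02 and the import machinery (21 of 22) of -0.02, each with 0 higher and 0 lower. SLC25A3, the phosphate carrier that supplies complex V, gave 3538, 3846 and 3529 in SW480 and 4770, 4321 and 4204 in M5 (difference 0.28, limma adjusted p = 0.412), without overlap. GPD2, which passes electrons from glycerol phosphate to ubiquinone, gave 300.4, 293 and 405 against 285, 203 and 207 (difference -0.52, limma adjusted p = 0.413). Signals of NRF1, of GABPA (the DNA-binding subunit of GABP) and of YY1 overlapped, with differences of -0.02, 0.09 and -0.17. GABPB1, the other GABP subunit, gave 86.2, 87.5 and 74.95 against 125, 101 and 109, without overlap (difference 0.42, limma adjusted p = 0.545). PPRC1 of the same list was lower in M5 without overlap (difference -0.51, limma adjusted p = 0.486). These were 2 of the 15 regulators tested (13.3%), against 16.1% of all genes without overlap in either direction.

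Subunits encoded in mitochondrial DNA had 7 of 13 genes tested, with 0 higher, 0 lower and a median difference of -0.06. COX1, the catalytic core of complex IV, gave 12089, 13372 and 11558 against 11345, 11451 and 10469 (difference -0.15, limma adjusted p = 0.621). All M5 arrays lay below all SW480 arrays, by a narrow margin. ND6, a membrane subunit of complex I, gave 231, 198 and 210 against 245, 418 and 406. The groups did not overlap and M5 replicates 2 and 3 were the high arrays (difference 0.70, limma adjusted p = 0.330). COX1 and ND6 were 2 of the 7 genes tested (28.6%), against 16.1% of all genes without overlap in either direction. NDUFAB1, the acyl carrier protein that is also a complex I subunit, and COX4I2, the alternative form of COX4I1, lay outside the naming rule and had differences of -0.24 and -0.09. SLC25A3, GPD2, COX1, ND6 and the regulators were chosen for mention after their values were seen.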

How the data were processed

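The authors deposited linear intensities, 1 for each probe set, from 6 Affymetrix arrays; they were made with GCOS 1.4, per the submitters' processing notes. For the genome build, scaling and detection settings: not given in the sources used here. Before testing, the 62 control probe sets among 54675 were left out. Intensities were quantile normalised and tested as log2(signal + 1.7), where 1.7 is the 20th percentile of the values. Probe sets among the dimmest 40% by mean were removed. Each gene was taken as the brightest of its remaining probe sets with a single symbol. limma 3.58.1 in R 4.3.3 (lmFit, eBayes with trend, two-sided) compared 3 M5 with 3 SW480 arrays, with Benjamini-Hochberg adjustment over 14243 genes and a threshold of 0.05. The procedure was run on simulated normal values with known changes. Their noise was the same for every probe set and smaller than the median spread within groups here. That run therefore gives no error rate for these arrays. The number of arrays limits the precision, and nothing in the labels says that replicates came from separate cultures beyond calling them biological, so p-values measure the spread between these arrays.

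M5 replicates 2 and 3 were kept as 2 arrays, because intensities without counts give no sampling noise to compare them with; averaging them was an alternative. Members and gene lists were chosen with earlier results of these data known. The genes named by rule were members past the threshold, in each complex those with the largest and smallest difference, the lowest p and the highest signal, complex II, and members of isoform pairs; others were chosen after their values were seen. Replicate numbers did not pair the samples. Figures were drawn with matplotlib 3.10.9.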

Additional observations from a re-analysis of the deposited data

How the results depend on the processing

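No member was higher in M5 under the alternatives run (scaling, pseudocount, filters, limma trend, probe set rule, blocks and left-out arrays), and NDUFA8 was lower without the 2 dimmest arrays, the 1 member call among them. The members' median difference of 0.05 was 0.31 without scaling and 0.20 with arrays centred on the median, 0.003 with the 18S class as a block, and 0.02 to 0.09 with each array left out in turn. Genes called over the whole table moved more. The 14 higher genes became 6 without scaling, 5 with median centring, 9 with a pseudocount of 0.425, 8 with the lowest 60% left out, 0 without the limma trend, 9 with the mean of a gene's probe sets, 1 with M5 replicates 2 and 3 averaged, 713 without the 2 dimmest arrays and 39 with those arrays as a block. The 13 lower genes became 3, 4, 7, 5, 0, 5, 3, 893 and 25 in the same order, and 8 with the 18S class as a block. With each array left out in turn, 0 to 102 genes were higher and 2 to 150 lower. Of the 191 related genes tested, 0 were called; an extension of the alternatives to them, chosen after seeing the data, called 13 of 193 without the 2 dimmest arrays, where 11.3% of all genes were called, and 0 to 3 with each array left out (3 without M5 replicate 1, where 1.77% of all genes were called). The shorter NRF1 motif GCGCANGC was found in 40% of members against 12.5% of all windows. For these shifts, the cause was not tested.

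With the replicate number as a block, 0 members were called and the median was 0.05. Deviations of equal numbers correlated at 0.11, 0.02 and 0.07, so the numbers were not taken as pairs. Detection calls are not given, so signal over background limits the reading of dim probe sets.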
